A study of Mus musculus with 3 samples.

Results

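The 14-3-3 proteins are a family of small adaptor proteins encoded in the mouse by 7 genes: Ywhab, Ywhae, Ywhag, Ywhah, Ywhaq, Ywhaz and Sfn. All 7 had a row among the 32531 gene rows of the deposited counts, and 6 of the 7 passed the filter on low counts that kept 8510 genes; Sfn did not. The family was selected on the measured level of Ywhaz, which is among the most abundant rows, so the levels given here are a description and were not tested. RNA attached to tagged ribosomes was recovered from the dentate gyrus of adult, untreated C57BL/6J mice of the Penk-TRAP line NIDA186, which carries an EGFP/Rpl10a fusion named for Penk, the proenkephalin gene. The method, translating ribosome affinity purification, pulls ribosomes down through the fluorescent tag, and all 3 libraries were pulled-down samples of this single group, numbered replicates 1 to 3. The series title names neurons as the cells profiled; the labels do not give the construct that drives the transgene. Values from unpurified tissue were not analysed here, and every level therefore describes the purified RNA and not an enrichment.

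Members of the family form dimers whose grooves bind phosphorylated serine or threonine within short motifs of client proteins. Binding can hold clients such as Raf kinases in an inactive state. It can also keep transcription factors and histone deacetylases in the cytoplasm, or alter the traffic of channels and receptors. The family is abundant in brain, where its proteins make up a sizeable part of soluble protein and act in neuronal migration, synaptic plasticity and survival. The sigma member Sfn is known chiefly from epithelia.

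The libraries were not alike. They held 5348761, 19195559 and 11059982 counts on genes in replicates 1 to 3, and genes with at least 10 counts numbered 8795, 14252 and 12019. Granule cell markers were present, with Prox1 at 2792, 10869 and 3047 counts. Of the 10 in the list 6 passed the filter, and Calb1, C1ql3, Tdo2 and Plk5 did not. Calb1 stood at 2, 1350 and 121 counts and C1ql3 at 0, 1658 and 453. Astrocyte markers summed to 3075, 1377 and 3246 CPM (a gene's count per 1000000 counts of the library size after TMM scaling) and endothelial and mural markers to 439, 989 and 352, so that replicate 2 was lowest in the former and highest in the latter. The astrocyte sum was carried by Slc1a2, at 2874, 1228 and 2796 CPM. Granule cell markers summed to 2063, 2248 and 1193 CPM and oligodendrocyte markers to 888, 776 and 1296. GABAergic interneuron markers summed to 521, 334 and 451 CPM and CA pyramidal cell markers to 499, 485 and 516. The endothelial and mural sum was carried by Rgs5 in replicates 1 and 2 and by Flt1 in replicate 3. Rgs5 stood at 370, 747 and 67.2 CPM and Flt1 at 17.2, 89.8 and 227. Some markers thus ran otherwise than the sum of their list, such as Flt1, and Aqp4 at 24.8, 61.3 and 96. Of 7 microglial markers C1qa was at 0 in every library, and the summed level of the list ran from 3.3 to 23.3 CPM. The part of these differences in the results below was not tested. Nothing in the labels ties a replicate to an animal, and the spread between these libraries may be technical. The p-values below hold for these libraries only. They set differences between libraries against counting noise, or a gene's level against the median gene with this spread as the error.

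The coding sequences of the 7 genes were compared first, because related genes can lose or share reads in counting. Only 60-base parts that aligned to Ywhaz without a gap in every other gene were compared, each starting at a codon. Among them, the stretch below had the highest mean identity to Ywhaz. It covers bases 22 to 81 of Ywhaz, counted from the A of the start codon (GENCODE vM21 transcripts, GRCm38, coding strand). It is shown because even here every gene carries its own pattern of differences from Ywhaz, which are in capitals.
Ywhaz: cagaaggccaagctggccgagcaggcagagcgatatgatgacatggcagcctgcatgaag
Ywhab: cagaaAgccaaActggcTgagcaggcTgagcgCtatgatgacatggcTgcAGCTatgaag
Ywhae: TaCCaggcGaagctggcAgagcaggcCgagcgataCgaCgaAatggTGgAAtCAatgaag
Ywhag: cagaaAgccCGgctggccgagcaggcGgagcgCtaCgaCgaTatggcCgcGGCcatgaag
Ywhah: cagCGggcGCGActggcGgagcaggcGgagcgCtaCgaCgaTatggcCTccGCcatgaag
Ywhaq: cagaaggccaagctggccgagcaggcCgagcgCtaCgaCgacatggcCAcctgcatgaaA
Sfn: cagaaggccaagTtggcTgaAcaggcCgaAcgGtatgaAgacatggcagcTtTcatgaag

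Mean identity to Ywhaz over the other 6 genes was 80.8% in this stretch, and the number of bases that differed from Ywhaz ran from 7 in Ywhaq to 16 in Ywhah. Parts of the coding sequence with a gap in any alignment could not be picked. Among the parts without gaps, the least like Ywhaz was bases 385 to 444 of Ywhaz, with a mean identity of 56.7%. It follows in the same layout, again with differences from Ywhaz in capitals.
Ywhaz: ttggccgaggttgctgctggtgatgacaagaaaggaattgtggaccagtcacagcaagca
Ywhab: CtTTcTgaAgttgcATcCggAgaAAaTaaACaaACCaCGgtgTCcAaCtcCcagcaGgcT
Ywhae: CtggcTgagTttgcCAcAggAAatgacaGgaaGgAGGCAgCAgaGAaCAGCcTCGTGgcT
Ywhag: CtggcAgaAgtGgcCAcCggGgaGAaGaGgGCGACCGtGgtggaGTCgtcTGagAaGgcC
Ywhah: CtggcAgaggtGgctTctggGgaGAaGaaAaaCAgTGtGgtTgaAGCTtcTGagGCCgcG
Ywhaq: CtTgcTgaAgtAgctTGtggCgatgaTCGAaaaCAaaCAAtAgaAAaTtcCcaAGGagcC
Sfn: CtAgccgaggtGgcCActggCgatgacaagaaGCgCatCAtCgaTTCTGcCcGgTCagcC

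Over the whole coding sequence, Ywhag and Ywhah were the closest pair, at 79.0% identity, and Ywhaz and Ywhab followed at 75%. Ywhae was the farthest from the rest, with a mean identity of 63.8% to the other 6. The longest identical run between any gene and its closest relative was 30 bases, for Ywhag and Ywhah. No stretch of 50 bases was shared between any members in the annotated transcripts, so a read of that length or longer without mismatches could be placed on 1 member only.

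Copies outside the family were another matter. Of all 75-base stretches in its annotated transcripts, Ywhaq shared 23.9% with transcripts of other genes, among them the processed pseudogenes Gm2423 (16.7%) and Ywhaq-ps3 (16.5%) and the gene Cdk5rap2 (11.8%). Ywhaz shared 13.8%, nearly all of it with the pseudogene Gm4202 (13.6%). Sfn shared 7.41% and Ywhah 5.54%, whereas Ywhab, Ywhae and Ywhag shared 0%. Among 7918 tested genes with a value, 74.9% shared no such stretch, and Ywhaq exceeded 97.5% of them. Reads that align to several places were kept out of the gene counts and made up 32.2, 24.8 and 37.5% of listed reads in replicates 1 to 3. The read length behind the counts is not known, and how many reads of Ywhaq and Ywhaz were lost in this way was not tested, so both levels are uncertain. The annotated antisense gene Gm4419 overlaps 248 exon bases of Ywhaq on the opposite strand, and as the strand setting of the count is not known, reads of the pair cannot be told apart there.

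Ywhaz, the zeta member and a regulator of Raf and of the enzymes that make monoamines, had the highest level of the family. The gene lies on chromosome 15 (36770770 to 36796929, minus strand) and had 16135, 144724 and 41442 counts in replicates 1 to 3. These correspond to 3804, 6318 and 3546 CPM, a mean of 4556 ± 1532 (SD, n = 3). Replicate 2 was high, and replicates 1 and 3 lay close together. By mean CPM it ranked 9 among all rows. Genes differ in length, and longer transcripts collect more reads, so levels of different genes were compared as CPM per kb of annotated exon. On that scale Ywhaz stood at 924, 1534 and 861, a mean of 1106 ± 372 (n = 3), which ranked 6 among 7924 tested genes with a length.

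Ywhae, the epsilon member, binds the Ndel1 protein in the dynein pathway of neuronal migration. It lies on chromosome 11 (75732869 to 75765845, plus strand) and had 4825, 53213 and 12869 counts. Its level was 1138, 2323 and 1101 CPM, or 592 ± 271 CPM per kb (SD, n = 3). As for Ywhaz, replicate 2 stood above the other libraries, which were almost equal. Ywhab, the beta member and a Raf-binding protein, lies on chromosome 2 (163994960 to 164018588, plus strand). It had 5170, 37006 and 14661 counts, which gave 1219, 1616 and 1254 CPM and 403 ± 64.9 CPM per kb (n = 3). The libraries differed less for Ywhab than for Ywhae, and replicate 2 was again the highest.

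Ywhag, the gamma member, is known from brain and muscle, and variants of its human counterpart are linked to childhood epilepsy. It lies on chromosome 5 (135908409 to 135934616, minus strand) and had 4427, 22280 and 11160 counts. The level was 1044, 973 and 955 CPM, nearly the same in every library, or 180 ± 8.55 CPM per kb (SD, n = 3). Ywhah, the eta member, also lies on chromosome 5 (33018816 to 33027966, plus strand) and had 2232, 22075 and 3593 counts. Its level of 526, 964 and 307 CPM was uneven, with replicate 2 highest and replicate 3 lowest. Per kb it stood at 162 ± 90.1 CPM (n = 3), within its spread of Ywhag.

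Ywhaq, the theta member, which is widely expressed and also present in T cells, lay far below these 5 genes. It lies on chromosome 12 (21390071 to 21417637, minus strand) and had 74, 2389 and 641 counts. The level was 17.4, 104 and 54.8 CPM, lowest in replicate 1, or 19.2 ± 14.2 CPM per kb (SD, n = 3). Ywhaq still exceeded 78.8% of tested genes per kb, against at least 99% for each of the other 5 tested members. When only exon bases outside the stretches shared with other genes were counted as length, Ywhaq stood at 25.3 ± 18.7 CPM per kb (n = 3), against 171 ± 95.4 for Ywhah and 1283 ± 431 for Ywhaz. This length was chosen after seeing the data, and the distance between Ywhaq and the others was of the same order with it.

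Sfn, the sigma member, an epithelial protein induced by p53 that holds cells before mitosis, was at the limit of detection. It lies on chromosome 4 (133600556 to 133602168, minus strand) and had 1, 15 and 0 counts. Its level was 0.236 CPM in replicate 1 and 0.655 CPM in replicate 2, and the count of 0 in replicate 3 allows up to 0.257 CPM (3 counts, counting error only). Keratinized epithelium markers (8 genes) were near the floor in replicate 1, at a summed 0.943 CPM, and reached 45.6 and 79.1 CPM in replicates 2 and 3. A different gene made up most of each of these sums. Perp stood at 0, 36.3 and 1.03 CPM in replicates 1 to 3, and Krt10 at 0, 1.09 and 73.1. Krt14, Dsg1a and Dsg3 were at 0 in all 3. The part of these markers in the counts of Sfn was not tested. No fold against Sfn is given, since it rests on so few counts.

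**Figure D1:**
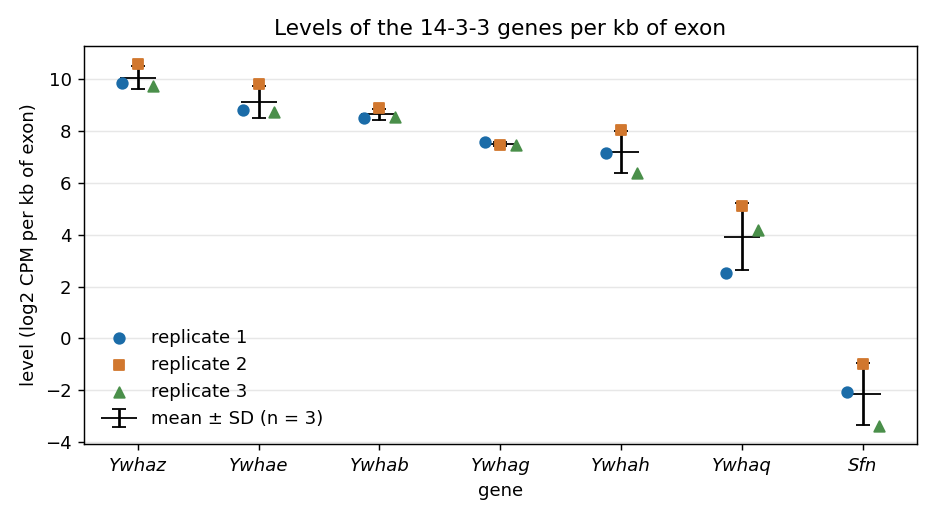
Levels of the 7 genes on the vertical axis (log2 CPM per kb of exon, with a prior count of 2), 1 symbol per library, with mean and SD over 3 libraries in black. Ywhaz stands at a mean of 10.06, Ywhae at 9.12, Ywhab at 8.64, Ywhag at 7.49, Ywhah at 7.18 and Ywhaq at 3.93; the place of Sfn rests on 16 counts in all and on the prior count.

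The order of the members was nearly the same in each library. Ywhaz led, followed by Ywhae and then Ywhab, with Ywhaq next to last and Sfn last, in 3 of 3 libraries, and Ywhag and Ywhah took the places between. A gap between neighbours was taken to exceed its spread where the mean log2 difference was larger than its SD and had the same sign in all 3 libraries. Of the 6 gaps, 5 did. No test was made, since flipping signs exactly over 3 libraries gives a two-sided p of 0.25 at best.

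Ywhaz exceeded Ywhae by 0.94 on the log2 scale of CPM per kb (SD 0.16), with 1.06, 0.76 and 1.01 in replicates 1 to 3. The gap was wider without a correction for length, at 1.62, and with coding length, at 1.68. Ywhae exceeded Ywhab by 0.48 (SD 0.39), a narrow gap made mostly by replicate 2, at 0.92 against 0.30 and 0.21. In the same settings the gap of Ywhae to Ywhab was 0.08 and 0.03, so Ywhae and Ywhab could then not be told apart. Ywhab exceeded Ywhag by 1.15 (SD 0.26), and by less with no length correction (0.45), coding length (0.46) and the longest protein-coding transcript (0.67). Ywhag and Ywhah did not differ beyond their spread: the mean difference was 0.31 (SD 0.82), and its sign turned in replicate 2, at -0.56. With the longest protein-coding transcript as length, Ywhah lay above Ywhag by 0.12 (SD 0.82) and below Ywhab by 0.56 (SD 0.65), within the spread of both. The annotated exons of Ywhah span 3.71 kb and its longest coding transcript 1764 bases. With no length correction, with coding length and without replicate 2, Ywhag lay above Ywhah beyond the spread, by 0.88, 0.87 and 0.74. Ywhah exceeded Ywhaq by 3.25 (SD 1.24), from 4.63 in replicate 1 to 2.21 in replicate 3. The gap from Ywhaq to Sfn also kept its sign, and its size depends on the prior count.

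The family took up 0.614, 1.47 and 0.763% of all gene counts in replicates 1 to 3. Within the family, the share of Ywhaz moved least relative to its size, though in replicate 2 it was higher by more than counting error. Ywhaz made up 49.1% of family counts in replicate 1 (95% Wilson interval 48.6 to 49.6), 51.4% in replicate 2 (51.2 to 51.6) and 49.1% in replicate 3 (48.8 to 49.5). These intervals cover counting error only, since copies made by PCR are not independent molecules. Corrected for length, the share of Ywhaz was 44.7, 45.3 and 44.5%, a mean of 44.8 ± 0.406 (SD, n = 3).

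The smaller shares were less steady. Ywhae made up 14.7, 18.9 and 15.3% of family counts, highest in replicate 2. Ywhab made up 15.7, 13.1 and 17.4%, lowest in replicate 2. Ywhag was also lowest there, at 13.5, 7.91 and 13.2%, with intervals of 13.1 to 13.8, 7.81 to 8.01 and 13 to 13.5. Ywhah made up 6.79, 7.84 and 4.26%, lowest in replicate 3. Ywhaq made up 0.225% in replicate 1 (0.179 to 0.283), 0.848% in replicate 2 (0.815 to 0.883) and 0.760% in replicate 3 (0.703 to 0.821). The share of Ywhaq in replicate 1 thus lay below both others by more than counting error.

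**Figure D2:**
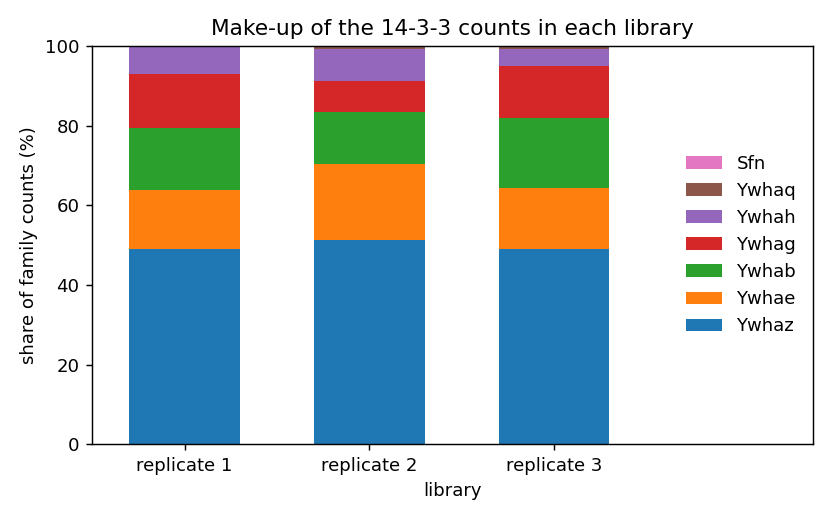
Stacked bars of each gene's share of the family's counts (%), 1 bar per library, summing to 100%. Ywhaz fills 49.1, 51.4 and 49.1% of the bars, and the Ywhag part is smallest in replicate 2, at 7.91%; the parts of Ywhaq and Sfn are too thin to read.

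The summed level of the family differed between libraries that the labels describe alike, at 7748, 12298 and 7218 CPM, a mean of 9088 ± 2793 (SD, n = 3). In bulk RNA, fewer cells of a type and less RNA per cell cannot be told apart. Each of the 6 tested members differed between the libraries beyond sampling noise (Poisson chi-square test of counts against effective library sizes, Benjamini-Hochberg adjusted over 8510 genes), and so did 97.4% of all tested genes, a background the members do not stand out from. This chi-square grows with a gene's count as well as with its fold between libraries, so its order is not one of fold. Ywhaz had the largest chi-square of the members, 13226, followed by Ywhae at 7566 and Ywhah at 4885, for which the adjusted p was too small to be represented. The chi-square was 885 for Ywhab (adjusted p = 4.1e-192), 469 for Ywhaq (adjusted p = 3.9e-102) and 25.5 for Ywhag (adjusted p = 3.2e-06). The call of Ywhag ended when all libraries were thinned to the depth of replicate 1 (adjusted p = 0.0728). That of Ywhae ended without replicate 2 (adjusted p = 0.871), so that replicates 1 and 3 were not told apart for this gene.

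Of the 6 tested members 5 were highest in replicate 2, against 30.5% of all tested genes and 14.8% of the 305 tested genes with a mean of at least 500 CPM. Ywhag, highest in replicate 1, was the exception. Ywhaq, at a mean of 58.9 CPM, is 1 of the 5 but not of the 305. The same library was highest for each of the 6 with DESeq2 size factors, with library sizes taken without ribosomal protein and mitochondrial genes, and with libraries thinned to replicate 1. The fold between the highest and the lowest library was 1.09 for Ywhag, 1.33 for Ywhab, 1.78 for Ywhaz, 2.11 for Ywhae, 3.14 for Ywhah and 5.98 for Ywhaq. With DESeq2 size factors the fold of Ywhag was 1.18, with replicate 2 lowest and not replicate 3. The folds of the other tested members were then smaller than with TMM scaling.

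On the log2 CPM scale the SD over libraries was 0.07 for Ywhag, and only 0.447% of tested genes had a smaller one. It was 0.22 for Ywhab, 0.45 for Ywhaz, 0.61 for Ywhae, 0.82 for Ywhah and 1.30 for Ywhaq. The 6 include Ywhaq, whose mean lies under 500 CPM. Their median SD was 0.53, against 0.97 over all tested genes and 0.65 over those with at least 500 CPM. Among the latter, 0.328% had a smaller SD than Ywhag, 8.52% than Ywhab, 27.5% than Ywhaz, 45.6% than Ywhae and 68.9% than Ywhah. With TMM scaling, Ywhag and Ywhab were thus among the steadier abundant genes, whereas Ywhae was close to the middle and Ywhah above it.

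**Figure D3:**
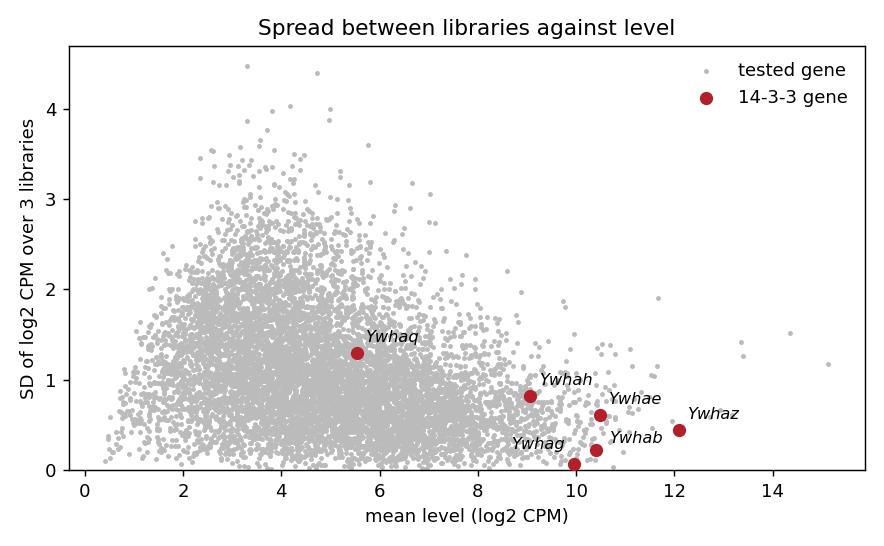
SD of log2 CPM over the 3 libraries (vertical axis) against mean log2 CPM (horizontal axis), 1 grey dot per tested gene, with the 6 tested 14-3-3 genes in red. Ywhag lies at the lower edge with an SD of 0.07, and Ywhaq, the member of lowest level shown, has the largest SD of the members, 1.30.

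Genes whose levels were most like those of each member were found by the root mean square difference of log2 CPM over the 3 libraries, which is a likeness in level and pattern over 3 points and says nothing of shared function. The gene nearest to Ywhaz was Snap25, a SNARE protein of synaptic vesicle fusion, at a difference of 0.63 and with 5316, 10871 and 5338 CPM. Snap25 showed the same high replicate 2 and nearly equal replicates 1 and 3. Also among the 5 nearest were Ank2, an axonal ankyrin, at 0.83, Prkcb, a protein kinase C, at 0.91 and Ppp3ca, the catalytic subunit of calcineurin, at 1.03. Ank2 and Prkcb lay lowest in replicate 2, at 2563 and 2188 CPM, so they were near Ywhaz in level and not in pattern.

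The other members had closer neighbours. Ywhab was nearest to Zeb2, a transcription factor (0.15), and Dclk1, a doublecortin-like kinase (0.18). Ywhae was nearest to the small GTPase Rac1 (0.36) and again Zeb2 (0.37). Ywhag was nearest to Rab6b, a GTPase of vesicle transport (0.07), with 1132, 974 and 948 CPM, and to Tmod2, a neuronal actin-capping protein (0.13). Ywhah was nearest to Basp1, a growth cone protein (0.17), with 434, 894 and 302 CPM, and to Rgs7bp (0.25). Ywhaq was nearest to Ube2d2a, a ubiquitin-conjugating enzyme, and Coq5, an enzyme of coenzyme Q synthesis (0.12 each), with 17.9, 120 and 53.6 CPM for the former.

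The proteins that 14-3-3 dimers bind, and the kinases that act on both, were read from lists of 127 partner genes, of which 95 passed the filter. The level of each gene was set against the median tested gene of the same library (limma, TREAT with a log2 threshold of 1, adjusted over all tested genes). Above the median gene, by this test, were 30 of 95 partner genes and 14.1% of all tested genes, and the median level was 1.39 on the log2 scale against -0.17. Below it were 0 partner genes by limma (1 at an unadjusted p under 0.05, the stress gene Ddit4, and 0 with DESeq2 size factors) and 5.22% of all tested genes. Per kb of exon, 18 of 95 lay above and 0 below, against 9.76 and 3.74% of all tested genes. The 32 partner genes that failed the filter are not in these counts. They ran from 0 counts in every library, as for Th and Sphk1, to genes near 0 in replicate 1 alone, such as Yap1 at 3, 608 and 141 counts. Without replicate 1, 113 partner genes could be tested, and 44 lay above and 5 below, against 19.1 and 8.01% of all genes tested then. Those below were Foxo4, Kcnh2, Nde1, Prkcd and Rps6ka1. The last of these was also the 1 gene below without replicate 2 or without replicate 3. Between the libraries, 94 of the 95 differed beyond sampling noise, against 97.4% of all tested genes, and Tsc2 was the exception.

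Kinases that create 14-3-3 binding sites had 11 of 23 tested genes above the median gene and a median level of 1.68, and 9 of 23 above per kb. Of all tested genes 14.1% lay above, and 9.76% per kb. Camk2a, a calcium-dependent kinase of excitatory synapses, led them at 1320 ± 554 CPM per kb (SD, n = 3), above Ywhaz on the mean though not in replicate 2, where it stood at 824 against 1534. Prkce, a protein kinase C, stood at 148 ± 49.7 and Pak1, an effector of Rac and Cdc42, at 102 ± 46.3 CPM per kb (n = 3). Both means lay under that of Ywhah, which stood at 142, 260 and 82.9 in replicates 1 to 3. Prkce, at 187, 165 and 92.1, was nevertheless above Ywhah in replicates 1 and 3. Pak1, at 60.1, 152 and 94.7, was above Ywhah in replicate 3. Rps6ka1 was lowest with 17, 17 and 33 counts. Kinases that phosphorylate 14-3-3 proteins themselves had 4 of 8 above, led by Mapk10, the neuronal Jun kinase, at 78.7 ± 6.16 CPM per kb (n = 3). Prkaca, which stands in both lists, reached 68.4 ± 11.3 and Mapk9, another Jun kinase, 36.9 ± 12.5. The last of the 4 was Dyrk1a at 26.1 ± 4.81, named after its value was seen, whose call ended per kb (limma adjusted p = 0.0944). Prkaca encodes a catalytic subunit of protein kinase A, and the call of Prkaca ended without replicate 2 (limma adjusted p = 0.132) and without replicate 3 (0.0517).

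Clients at the membrane and synapse had 6 of 11 above and a median level of 2.40, and 3 of 11 above per kb. The shares of all tested genes were again 14.1%, and 9.76% per kb. The calls that ended per kb, named after their values were seen, were those of Adam22, Igf1r and Kcnma1 (limma adjusted p = 0.697, 0.378 and 0.37). Nedd4l, a ubiquitin ligase that regulates sodium channels, stood at 84.9 ± 29.8 CPM per kb and the GABA-B receptor gene Gabbr1 at 43.6 ± 8.79 (SD, n = 3). Cytoskeletal clients had 4 of 15 above, with Cfl1, which severs actin, at 113 ± 68.0, Pafah1b1, a dynein regulator, at 39.9 ± 12.1 and Ctnnb1, beta-catenin, at 33.9 ± 31.5 CPM per kb (n = 3). Ctnnb1 did not pass (limma adjusted p = 0.475), with 47, 4085 and 3956 counts, and passed without replicate 1 (adjusted p = 1.0e-09). The other genes above were Tiam1, a Rac exchange factor, at 28.6 ± 14.6 and the cofilin phosphatase gene Ssh2 at 14 ± 9.6 CPM per kb, named after their values were seen. Neither was above per kb (limma adjusted p = 0.112 and 0.85). Nde1 was lowest, at 3, 26 and 58 counts.

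Growth factor and MAP kinase clients had 3 of 15 above, or 20%, against 14.1% of all tested genes. Transcription cofactor clients, given below, also had 20%. These small lists were not tested against that share. Braf, a Raf kinase that 14-3-3 dimers can hold inactive, stood at 56.0 ± 7.84 CPM per kb (SD, n = 3). The G protein regulator gene Rgs7 stood at 27.7 ± 12.8 and the exchange factor gene Sos1 at 19.0 ± 5.43. The calls of Rgs7 and Sos1 ended per kb (limma adjusted p = 0.0988 and 0.359) and without replicate 2 (0.322 and 0.0951), and that of Rgs7 without replicate 3 (0.0542). Rgs3 was lowest, at 11, 306 and 8 counts. Transcription cofactor clients had 2 of 10 above, Atxn1, the ataxin-1 gene, at 34.2 ± 3.34 and Foxk1, a forkhead factor, at 22.5 ± 2.27 CPM per kb (n = 3), the latter not per kb (adjusted p = 0.173) or without replicate 2 (0.1). Crtc2, a coactivator of CREB and next in that list, stood at 28.7, 4.61 and 1.21 CPM per kb, highest in replicate 1, and Nfatc4 had 0, 5 and 0 counts.

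Survival and mTOR clients had 1 of 9 above, or 11.1%, against 14.1% of all tested genes. This gene was Rictor, a subunit of the mTOR complex 2, at 11.9 ± 6.03 CPM per kb, named after its value was seen. Its call ended per kb (limma adjusted p = 0.924), without replicate 2 (0.088) and without replicate 3 (0.101). Of cell cycle clients 0 of 5 were above (limma, also 0 at an unadjusted p under 0.05 and 0 with DESeq2 size factors). So few genes cannot show a share under 14.1%. The forkhead genes Foxo3 at 15.8 ± 10.8 and Foxo1 at 15.4 ± 8.79, and Ulk1, which starts autophagy, at 12.1 ± 1.04 CPM per kb (SD, n = 3) did not pass; Foxo1 passed without replicate 1 (limma adjusted p = 1.3e-06). The death-promoting client Bad was lowest, at 0, 6 and 0 counts. The cyclin-dependent kinase gene Cdk16 stood at 21.1 ± 8.67, Wee1, a brake on mitosis, at 6.56 ± 5.22 and Trp53, the p53 gene, at 6.12 ± 2.53 CPM per kb (n = 3), and Chek1 had 0, 23 and 5 counts.

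**Figure D4:**
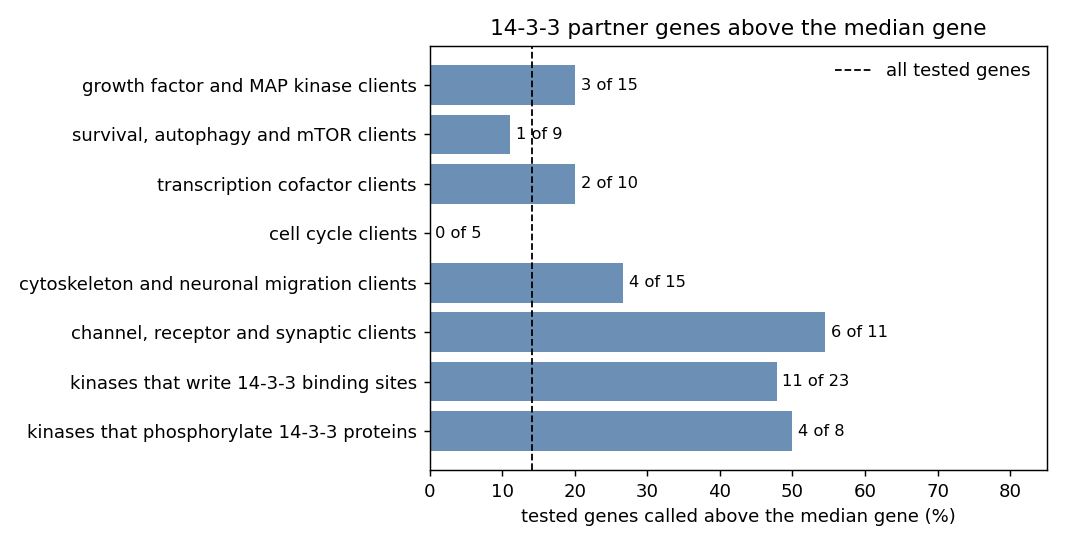
Share of tested genes in each partner list that lay above the median gene (horizontal axis, %; limma TREAT, adjusted over all tested genes), with counts beside the bars and the share of all tested genes, 14.1%, as a dashed line. The bars reach from 0 of 5 for cell cycle clients to 6 of 11 for channel, receptor and synaptic clients.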

How the data were processed

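Ribosome-bound RNA was sequenced in 3 libraries of 1 group. Each deposited file holds the authors' whole-number read counts per gene symbol, unnormalised and not pooled. Alignment and counting tools were STAR 2.0.0e and HTSeq with the mm10 build, per the submitters' processing notes. The gene models, strand setting and filters they used are not given in the sources used here. HTSeq summary rows stayed out of library sizes; 16.3, 38.2 and 21.1% of listed reads fell on genes.

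CPM used TMM scaling (edgeR 4.0.16, R 4.3.3; factors 0.793, 1.19 and 1.06), log2 CPM a prior count of 2, and filterByExpr kept 8510 genes. Exon lengths, positions and transcripts came from GENCODE vM21 (GRCm38); the authors may have counted over other gene models, and 93.1% of tested symbols had a length. Coding sequences were aligned end to end (Biopython 1.88). Tests were a Poisson chi-square between libraries and limma 3.58.1 TREAT (threshold 0.05), both adjusted over all tested genes; figures used matplotlib 3.10.9. With 1 group, no edgeR quasi-likelihood contrast exists. The scripts were tested on simulated data. A planned comparison of protein sequences was not made. As alternatives, size factors came from DESeq2 1.42.0, the filter was dropped, the prior count was 0.5, genes had other lengths, library sizes left out ribosomal protein and mitochondrial genes, libraries were thinned, and each replicate was left out.

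Members and lists were chosen with earlier results of these data known. Named were all members, the 3 highest tested genes per kb and the 1 lowest gene of each partner list, and the 5 genes nearest to Ywhaz and the 2 nearest to each other tested member; some genes that this rule names are not reported here. Partner genes are known 14-3-3 clients or kinases from general knowledge.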

Additional observations from a re-analysis of the deposited data

How the results depend on the processing

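Depth limits Sfn, with 16 counts in all. The summed level of the family kept within 1 SD in every alternative, from 6847 to 10972 CPM with each replicate left out. The mean CPM of Ywhab, 1363, moved by more than 1 SD without replicate 1 (1612) and without replicate 2 (1133). That of Ywhag, 990, did so too (1082 and 914). The share of Ywhaz moved from 49.9 to 44.8% when taken per kb of exon, and stayed between 49.1 and 50.2% with each replicate left out. Gaps between neighbours beyond their spread numbered 5, 4 with the longest protein-coding transcript and 5 to 6 with a replicate left out. Tested members that differed between libraries numbered 6, 5 when thinned and 5 to 6 with a replicate left out. With no filter Sfn was also called (Poisson chi-square, adjusted p = 0.0215), giving 7. Its counts of 1, 15 and 0 are too few for this test to be reliable. The share of all tested genes called was 97.4%, 95.8% when thinned, 84.7 to 86% with a replicate left out and 86.4% with no filter. Partner genes above the median gene, 30 of 95, numbered 73 of 124 with no filter, which lowers the median gene (4252 of 17659 genes above, and Foxo1, Foxo3, Ulk1, Cdk16 and Ctnnb1 then passed), 18 per kb of exon and 22 to 44 with a replicate left out. Of all tested genes 14.1% lay above, 24.1% with no filter, 9.76% per kb of exon and 11.4 to 19.1% with a replicate left out. Partner genes below numbered 5 with no filter (Bad, Bax, Chek1, Kcnk3 and Nfatc4) and 1 to 5 with a replicate left out, against 0. Of all tested genes 5.22% lay below, 23.1% with no filter and 3.95 to 8.01% with a replicate left out. When thinned, 27 of 91 partner genes lay above and 1 below, against 13.2 and 5.55% of all genes tested then. No paired analysis was possible because there is only 1 group.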
